A study of Mus musculus with 6 samples.

Results

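The expression of 10 genes of neutrophil granules and neutrophil cytosol was examined in liver, out of 22180 genes tested. The genes were chosen by symbol. They are S100a8 and S100a9, which encode the subunits of calprotectin, Elane, Prtn3, Ctsg and Mpo of the primary granules, Ltf, Camp and Ngp of the secondary granules, and Retnlg, a resistin-like gene of mature neutrophils. All 10 were found in the table, each through 1 probe set that carries exactly 1 gene symbol. Liver RNA came from male C57BL/6N mice aged 2 months, with 3 samples labelled cGK1-KO and 3 samples labelled wild type. The knockout mice lack cGK1, a cGMP-dependent protein kinase that is the product of Prkg1, and the series description adds that the kinase was restored in their smooth muscle. It calls the wild type mice controls. The labels give neither the driver of the rescue nor whether each sample was 1 animal, and RNA was taken from liver tissue, so transcripts of neutrophils were measured together with those of all other cells.

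Neutrophils are short-lived phagocytes that are made in the bone marrow and enter the liver from the blood. Their granule proteins are made in sequence, with the proteases and myeloperoxidase of the primary granules transcribed in promyelocytes and the proteins of the secondary granules in myelocytes. Transcripts of the primary granule genes are therefore scarce in circulating neutrophils, while S100a8 and S100a9 transcripts stay abundant until the cells are mature. In mouse liver, these transcripts are used to read the presence of neutrophils or of immature granulocytes.

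Values are log2 expression from robust multi-array averaging (RMA) on 1 array per sample, with 3 arrays in each group, and differences are knockout minus control. Array medians ranged over 3.11 to 3.16. The correlation between arrays, taken over genes that are not independent of each other, was 0.978 to 0.983 among knockout arrays, 0.989 to 0.990 among control arrays, and 0.978 to 0.983 between the groups. Hepatocyte markers marked the tissue as labelled, with albumin (Alb) at a mean of 13.4 in both knockout and control livers. The targeted gene Prkg1 had a mean of 3.19 ± 0.14 in knockout and 3.08 ± 0.21 in control livers (SD), and the difference of 0.11 had a 95% confidence interval of -0.23 to 0.45, so the array gives no check of the genotype labels. Which exon was deleted is not stated in the sources used here.

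Most of the neutrophil genes gave dim signals in both groups. The median of the whole table was 3.14, and 7 of the 10 genes had a mean over the 6 arrays under it. S100a8, S100a9, Ctsg, Ltf, Camp and Retnlg lay under it on every array. Elane and Ngp had means just above it and exceeded it on 4 of 6 arrays each, and Mpo exceeded it on 1 array. Prtn3 alone lay above the table median on all 6 arrays, at percentile 65.6 of the tested genes. For comparison, 41.1% of all tested genes had a mean under the table median. A dim signal on these arrays carries no detection call, so a level under the median is a bound on how well a difference can be measured rather than proof that the transcript is missing.

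**Figure D1:**
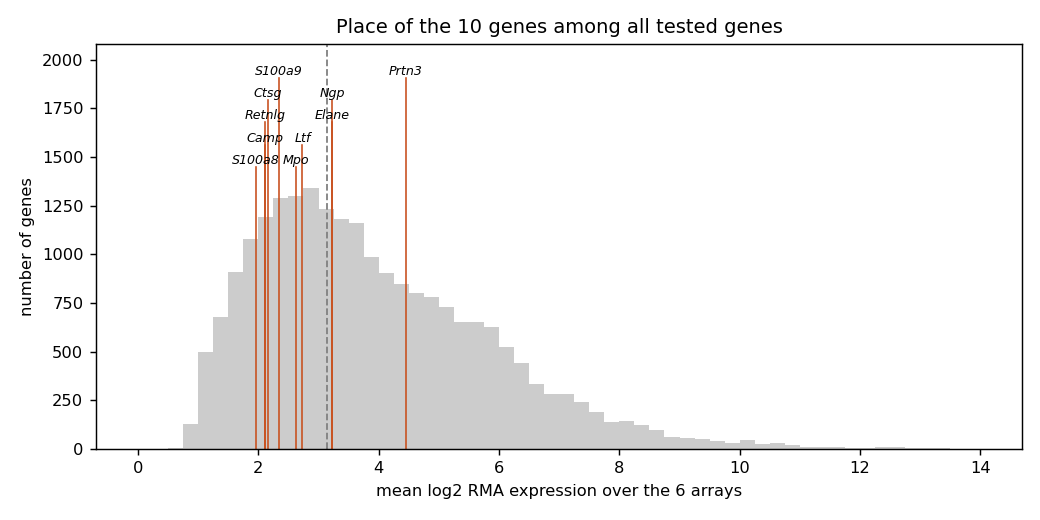
The histogram shows the number of genes (vertical axis) by mean log2 RMA expression over the 6 arrays (horizontal axis) for all 22180 tested genes. Orange lines mark the 10 neutrophil genes and the dashed line marks the table median of 3.14; 7 lines stand left of it, Elane and Ngp stand just right of it, and Prtn3 stands well to the right.

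None of the 10 genes passed an adjusted p of 0.05 in limma, and neither did any of the 22180 genes (0%), the smallest adjusted p among the 10 being 0.285 for Prtn3. At an unadjusted p under 0.05, 3 of the 10 had a higher knockout mean, namely Prtn3, S100a8 and Retnlg, and 0 had a lower one. Over all genes the share at that level was 10.5%, with 5.06% higher and 5.46% lower. A positive difference was found for 8 of the 10 genes, where 50.2% of all genes had one, and the median difference of the 10 was 0.19, where the median of all genes was 0.00. The 3 knockout values lay wholly above the 3 control values for 2 of the 10 genes, Prtn3 and S100a8, where this held for 7.61% of all genes, and wholly below them for 0 of the 10, against 9.14% of all genes. No test of the 10 genes as a group was made.

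Prtn3, which encodes proteinase 3, a serine protease of the primary granules, was the one gene of the 10 with a signal clearly above the table median. It had 4.91, 5.15 and 4.41 in the knockout arrays, against 4.18, 4.16 and 3.89 in the control arrays. Every knockout array lay above every control array, and knockout replicate 3 was the nearest to the controls. The means were 4.82 ± 0.38 in knockout and 4.08 ± 0.16 in control livers (SD). The log2 difference was 0.75 (SE 0.19), which is 1.68-fold with a 95% confidence interval of 1.24- to 2.27-fold, with a limma adjusted p of 0.285. The difference stayed positive without each array in turn. It was 0.58 without knockout replicate 2 and 0.95 without knockout replicate 3, where the adjusted p was 0.0676 (range over 14 alternatives 0.0676 to 0.690).

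Elane encodes neutrophil elastase, the next serine protease of the primary granules, and is the next protein-coding gene to Prtn3 on chromosome 10. It had 3.62, 2.99 and 3.17 in the knockout arrays, against 3.23, 3.29 and 3.07 in the control arrays. The groups overlapped, with knockout replicates 1 and 2 holding the highest and the lowest of the 6 values. The log2 difference was 0.06 (SE 0.18), with a 95% confidence interval of -0.34 to 0.46, which reaches 0.792- to 1.38-fold, with a limma adjusted p of 0.928. This interval and that of Prtn3 overlap, and whether the differences of Prtn3 and Elane are unequal was not tested. Plppr3, a membrane protein gene on the other side of Prtn3, differed by 0.24 (SE 0.19, limma adjusted p = 0.695).

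The 250 bases before the start of Prtn3 and of Elane are shown because the values of these neighbours differed in how far the groups lay apart, while their promoters carry the same motif letters in the same order. The sequences are RefSeq's, GRCm38.p6, plus strand, at chr10:79879417-79879666 for Prtn3 and at chr10:79886062-79886311 for Elane. Capitals mark GAGGAA, the core of the site read by the myeloid factor PU.1, and AACGG, the core of the site read by MYB.
Prtn3: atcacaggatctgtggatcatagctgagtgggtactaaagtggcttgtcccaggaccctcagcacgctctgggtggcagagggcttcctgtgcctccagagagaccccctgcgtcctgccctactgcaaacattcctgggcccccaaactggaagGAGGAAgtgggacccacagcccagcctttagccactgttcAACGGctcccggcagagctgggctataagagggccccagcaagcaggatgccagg
Elane: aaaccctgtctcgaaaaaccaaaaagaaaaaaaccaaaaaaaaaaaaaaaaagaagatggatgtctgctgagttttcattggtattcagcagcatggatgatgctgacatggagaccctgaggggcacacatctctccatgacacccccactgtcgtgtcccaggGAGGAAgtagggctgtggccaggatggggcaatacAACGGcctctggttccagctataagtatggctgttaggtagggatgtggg

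GAGGAA began 95 bases before the start of Prtn3 and 85 bases before that of Elane. AACGG began 55 and 50 bases before these starts, and the motifs did not overlap. Searched on both strands of 250 bases, GAGGAA was found in 6 of the 10 neutrophil genes and in 23.3% of 32851 promoters, and AACGG in 2 of the 10 and in 14.5% of promoters. Of the 10, Prtn3 and Elane alone held both, as did 3.33% of all promoters. TTNNGNAA, letters of the site read by C/EBP factors, was found in 5 of the 10, namely S100a8, S100a9, Ltf, Ngp and Retnlg, and in 36.8% of promoters. These matches describe letters and do not show that a factor is bound.

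The other primary granule genes gave no difference beyond the spread of the arrays. Mpo, which encodes the peroxidase that makes hypochlorous acid, had 3.16, 2.41 and 2.73 in the knockout arrays, against 2.19, 2.72 and 2.51 in the control arrays. The groups overlapped, and only knockout replicate 1 exceeded the table median. The log2 difference was 0.29 (SE 0.21, 95% confidence interval -0.19 to 0.77, limma adjusted p = 0.665). It was 0.089 without knockout replicate 1, 0.15 without control replicate 1 and 0.47 without knockout replicate 2. Ctsg, which encodes cathepsin G, had 2.27, 1.99 and 2.18 in the knockout arrays, against 2.12, 2.24 and 2.15 in the control arrays. Knockout replicates 1 and 2 held the highest and the lowest value, as for Elane. Its difference of -0.03 (SE 0.13) had the narrowest interval of the 10 genes, -0.32 to 0.27.

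**Figure D2:**
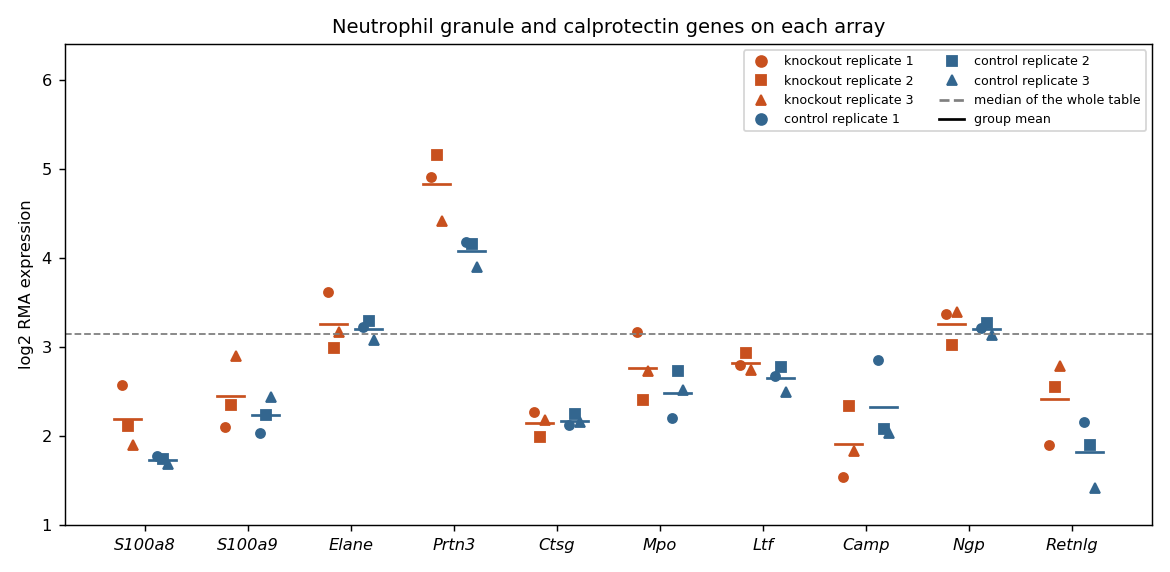
Each point is the log2 RMA expression (vertical axis) of a gene on 1 array, knockout arrays in orange to the left and control arrays in blue to the right, with bars at the group means and the median of the whole table as a dashed line. Knockout and control points are fully apart for S100a8 and Prtn3 and overlap for the other 8 genes, and only Prtn3 has all 6 points above the dashed line.

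The calprotectin subunits bind calcium, zinc and manganese and form a heterodimer that is released at sites of inflammation. S100a8 had 2.57, 2.11 and 1.89 in the knockout arrays, against 1.77, 1.74 and 1.68 in the control arrays. All knockout values lay above all control values, though knockout replicate 3 was only slightly above. The log2 difference was 0.46 (SE 0.18), or 1.38-fold with a 95% confidence interval of 1.04- to 1.82-fold, with a limma adjusted p of 0.415. It was 0.27 without knockout replicate 1, the array with the highest value. The gene lay at percentile 14.1 of the tested genes, which leaves the size of this difference uncertain.

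S100a9, the next protein-coding gene to S100a8 on chromosome 3, had 2.09, 2.34 and 2.90 in the knockout arrays, against 2.03, 2.24 and 2.44 in the control arrays. The groups overlapped, and the highest value was in knockout replicate 3, the knockout array in which S100a8 was lowest. The log2 difference was 0.21 (SE 0.21, 95% confidence interval -0.26 to 0.69, limma adjusted p = 0.762), and without knockout replicate 3 it was -0.015. The subunits did not have their high values on the same arrays.

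The secondary granule genes were Ltf, Ngp and Camp. Ltf, which encodes the iron-binding protein lactoferrin, had 2.80, 2.93 and 2.74 in the knockout arrays, against 2.67, 2.77 and 2.49 in the control arrays. The groups overlapped, and the difference was 0.18 (SE 0.13, limma adjusted p = 0.678). Ngp, a cathelicidin-related gene, had 3.37, 3.02 and 3.39 in the knockout arrays, against 3.21, 3.27 and 3.13 in the control arrays. Knockout values lay on both sides of the control values, with a difference of 0.05 (SE 0.14, adjusted p = 0.924).

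Camp, which encodes the antimicrobial peptide cathelicidin, had 1.54, 2.34 and 1.84 in the knockout arrays, against 2.85, 2.07 and 2.03 in the control arrays. It was the only one of the 10 genes whose highest value was in a control array, and the groups overlapped. Its difference was -0.41 (SE 0.26, limma adjusted p = 0.606), with a 95% confidence interval of 0.499- to 1.13-fold. Without control replicate 1 it was -0.15, and without knockout replicate 2 it was -0.63.

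Retnlg encodes a resistin-like hormone secreted by mature neutrophils. It had 1.90, 2.54 and 2.79 in the knockout arrays, against 2.15, 1.90 and 1.41 in the control arrays. Knockout replicate 1 lay within the range of the controls, and the other knockout values lay above it. The log2 difference was 0.59 (SE 0.25), or 1.51-fold with a 95% confidence interval of 1.01- to 2.24-fold, with a limma adjusted p of 0.460. It was 0.39 without control replicate 3 and 0.85 without knockout replicate 1. Its relatives beside it on chromosome 16, Retnla and Retnlb, were also dim and differed by 0.06 (SE 0.20) and -0.21 (SE 0.23).

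The 10 genes did not share a pattern over the arrays. The highest value was in knockout replicate 1 for 4 genes, in knockout replicate 2 for 2, in knockout replicate 3 for 3 and in control replicate 1 for 1. The lowest value was in a knockout array for 4 genes and in a control array for 6. The spread was larger among knockout than among control arrays for 8 of the 10 genes, as it was for 63.4% of all genes. For 7 of the 10 genes the 95% confidence interval of the difference included 0. Among these the highest upper bound was 1.70-fold, for Mpo, and the lowest lower bound was 0.499-fold, for Camp.

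**Figure D3:**
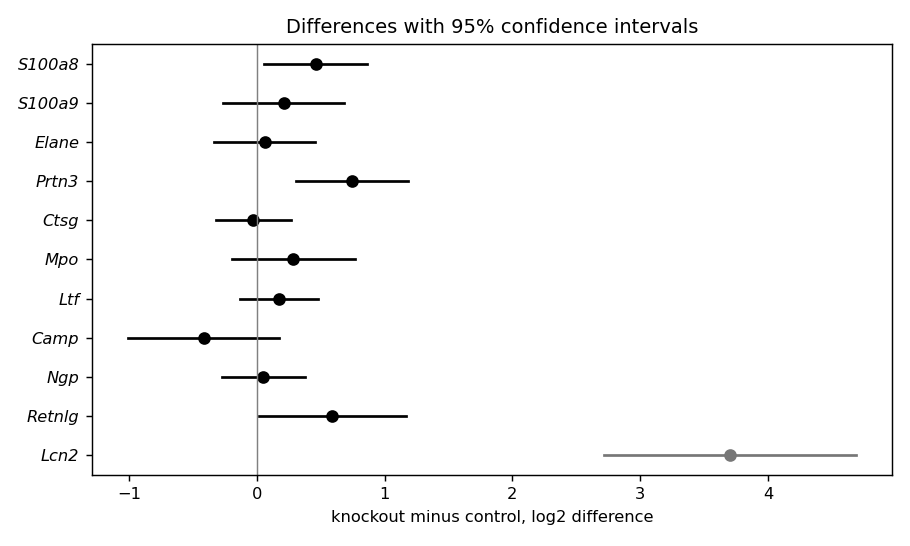
Points give the log2 difference, knockout minus control (horizontal axis), and lines the 95% confidence interval from limma for the 10 neutrophil genes, with Lcn2 in grey below. The intervals of S100a8, Prtn3 and Retnlg lie above 0, those of the other 7 genes include 0, and the interval of Lcn2 lies to the right of all of them.

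Other granule and cytosol genes of neutrophils, listed by knowledge of the cell type, had 14 positive and 5 negative differences among 19 measured, with a median of 0.22. Unadjusted, 6 were higher and 0 lower at p under 0.05, where 5.06% of all genes were higher and 5.46% lower. Of the 19, 0 passed an adjusted p of 0.05. Lcn2, which encodes the siderophore-binding protein lipocalin 2 of secondary granules and is also made by hepatocytes, had 9.83, 10.39 and 8.79 in the knockout arrays, against 5.45, 5.62 and 6.83 in the control arrays. All knockout arrays lay far above the controls, with a difference of 3.70 (SE 0.44, 95% confidence interval 2.72 to 4.69, limma adjusted p = 0.0674). Ltf, Camp and Ngp of the same granules had intervals that ended at 0.48, 0.18 and 0.38.

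The collagenase gene Mmp8 differed by 0.74 (SE 0.16, limma adjusted p = 0.237) and lay under the table median on all arrays. Mmp9, the gelatinase gene, differed by 0.46 (SE 0.15, adjusted p = 0.346). Lyz2, a lysozyme gene that macrophages also express, differed by 0.47 (SE 0.12, adjusted p = 0.293). Cybb and Hp, the others of this list at an unadjusted p under 0.05, differed by 0.68 (SE 0.30, adjusted p = 0.461) and 0.39 (SE 0.16, adjusted p = 0.429). Hp lay at percentile 99.8 of the tested genes, Lcn2 at 96.1, Lyz2 at 88.1 and Cybb at 84.7, all brighter than any of the 10 genes. Mmp9 and Mmp8 lay at 48.3 and 24.3. How much of the signal of this list came from neutrophils was not tested. In Lcn2, Mmp8, Mmp9, Lyz2 and Hp, 5 of the 19 genes, the knockout arrays lay wholly above the control arrays, where this held for 7.61% of all genes.

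Neutrophil receptor and surface genes did not lie to one side. Of 13 measured, 8 had positive and 5 negative differences, with a median of 0.07, and 10 had a mean under the table median. Ly6g, the surface protein gene that defines mouse neutrophils, had 1.95, 1.82 and 2.32 in the knockout arrays, against 2.24, 1.92 and 1.97 in the control arrays, dim on all of them and overlapping. Clec4e, a lectin receptor gene, differed by 0.43 (SE 0.14, limma adjusted p = 0.359), and Cxcr2, the receptor for neutrophil-attracting chemokines, by 0.32 (SE 0.16, 0.507). Trem1, a receptor that amplifies inflammatory signals, differed by -0.40 (SE 0.16, 0.423) and Ccr1 by -0.31 (SE 0.14, 0.478), with the knockout arrays wholly below the controls in both. Of the 13 genes, 2 lay wholly below and 1 wholly above, where 9.14% and 7.61% of all genes did.

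Genes of granulocyte progenitors and their transcription factors had 8 positive and 4 negative differences among 12, with a median of 0.07. Ctsc, which encodes the protease that activates the proforms of elastase, proteinase 3 and cathepsin G, differed by 0.48 (SE 0.20, limma adjusted p = 0.439). Spi1, which encodes PU.1 and is also expressed in macrophages, had 5.07, 6.30 and 5.35 in the knockout arrays, against 5.03, 4.74 and 4.96 in the control arrays, and differed by 0.66 (SE 0.28, adjusted p = 0.446). Knockout replicate 2 stood apart in Spi1, and knockout replicate 1 barely exceeded the controls. Kit differed by -0.26 (SE 0.13) and Cebpa by 0.23 (SE 0.16), and neither passed. Ms4a3, a gene of granulocyte-monocyte progenitors, had 4.51, 4.22 and 4.07 in the knockout arrays, against 4.16, 4.30 and 4.62 in the control arrays, with overlap.

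Attractants and growth factors had 8 positive and 3 negative differences among 11, with a median of 0.16. Cxcl3 differed by 0.64 (SE 0.19, limma adjusted p = 0.326) at levels under the table median on all arrays, and Cxcl5 by 0.32 (SE 0.16). The complement receptor gene C5ar1 differed by -0.34 (SE 0.16, adjusted p = 0.486), with the knockout arrays wholly below the controls, and Il1b by -0.27 (SE 0.20). Of the 11 genes, 1 lay wholly below and 1 wholly above, where 9.14% and 7.61% of all genes did.

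Genes that take up the calprotectin signal had 5 positive and 2 negative differences among 7, with a median of 0.23. The fatty acid transporter gene Cd36, whose product also binds calprotectin-carried lipid, differed by 1.23 (SE 0.31, limma adjusted p = 0.264), and the adaptor gene Myd88 by 0.65 (SE 0.24, 0.398). Ly96, the partner of the receptor TLR4, differed by 0.37 (SE 0.16), and Ager, the receptor for advanced glycation end products, by -0.28 (SE 0.16). Inhibitors of the granule proteases had 6 positive and 5 negative differences among 11, with a median of 0.02. Serpina3n differed by 1.10 (SE 0.19, adjusted p = 0.151), with all knockout arrays above the controls. Of the 11 inhibitor genes, 2 lay wholly above and 1 wholly below, where 7.61% and 9.14% of all genes did. Serpina1e, from a family of near-identical genes whose probes can cross-hybridise, had 10.50, 9.26 and 11.81 in the knockout arrays, against 11.63, 11.91 and 11.69 in the control arrays, so that knockout replicates 1 and 2 lay below the controls and knockout replicate 3 within them. Serpina1a and Pzp differed by -0.18 (SE 0.13) and 0.12 (SE 0.12).

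**Figure D4:**
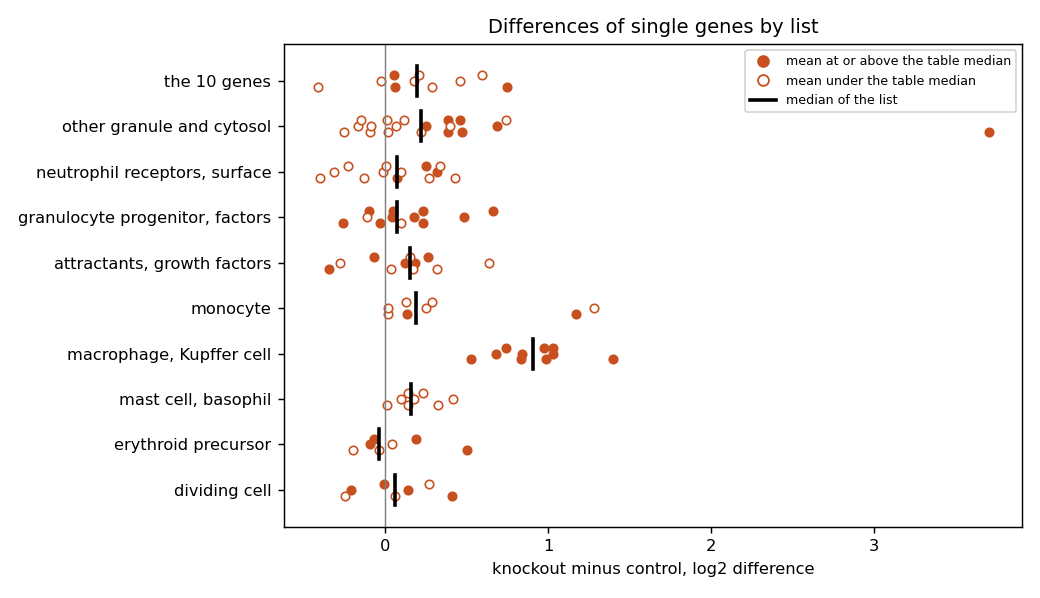
Each point is the log2 difference, knockout minus control (horizontal axis), of 1 gene, by list (vertical axis), filled where the gene's mean over the 6 arrays is at or above the table median and open where it is under it, with black bars at the list medians. The macrophage and Kupffer cell genes lie wholly right of 0 with a median of 0.91, while the 10 neutrophil genes have a median of 0.19 and most of their points are open.

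Markers of other blood cells were read on the same arrays. Macrophage and Kupffer cell markers had positive differences for 10 of 10 genes, with a median of 0.91. At an unadjusted p under 0.05, 10 of 10 were higher, where 5.06% of all genes were, while 0 passed an adjusted p of 0.05. C1qa differed by 0.84 (SE 0.17), Marco by 0.74 (SE 0.18), Cd68 by 0.98 (SE 0.25), while the ratio for Cd5l was 2.64-fold. Their summed linear signal was 728 to 1807 in knockout arrays and 540 to 590 in control arrays, and 0 of these markers were at 0. Summed over the 10 neutrophil genes, the linear signal was 80.2 to 90.2 in knockout and 63.2 to 71.5 in control arrays. Prtn3, the brightest of the 10 on every array, weighs most in this sum, and 7 of the 10 single intervals included 0. Prtn3 and Spi1 were both highest in knockout replicate 2. In knockout replicates 1 and 3, Prtn3 had 4.91 and 4.41, while Spi1 had 5.07 and 5.35, in the opposite order. Whether macrophages have a part in the Prtn3 difference was not tested. In whole liver, a different number of cells and a different amount of RNA per cell cannot be told apart.

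Monocyte markers had 8 of 8 positive differences, with a median of 0.19. This median was 0.38 without knockout replicate 1, and 0.65 over the only 2 markers with a mean at or above the table median. Plac8 differed by 1.17 (SE 0.26, limma adjusted p = 0.237) and Ly6c2 by 1.28 (SE 0.41, 0.347), while Ccr2 and F13a1 differed by 0.13 (SE 0.12) and 0.25 (SE 0.21). Their summed signal was 66.3 to 104 in knockout and 53.8 to 65.0 in control arrays, a linear sum in which the brightest markers weigh most. Singly, the knockout arrays lay wholly above the controls for 2 of the 8 markers, where this held for 7.61% of all genes. Mast cell and basophil markers, some of which share the serine protease family with Ctsg, had 8 of 8 positive differences with a median of 0.16. All 8 had a mean under the table median.

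Erythroid precursor markers, read because immature granulocytes in a liver can come with blood formation, had 3 positive and 4 negative differences with a median of -0.04, and their summed signal was 63.9 to 86.3 in knockout and 70.7 to 72.5 in control arrays. Genes of dividing cells had 4 positive and 3 negative differences with a median of 0.06. Mki67 differed by 0.41 (SE 0.13, limma adjusted p = 0.346) and Top2a by 0.27 (SE 0.15). Eosinophil markers had a median of 0.02, B cell markers one of -0.03 and T and NK cell markers one of 0.12. The last was -0.0093 without knockout replicate 3 and 0.22 without knockout replicate 2. Within this list the T cell receptor subunit gene Cd3e differed by 0.61 (SE 0.15, adjusted p = 0.249) and Cd3d by -0.37 (SE 0.21). Cd3e was the only 1 of the 6 T and NK cell markers with a mean at or above the table median. The 9 measured neutrophil markers beyond the 10 genes had a median of 0.07, and the hepatocyte markers one of 0.02.

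The genes whose values followed S100a8 most closely over the 6 arrays, among 13054 genes with a mean at or above the table median, were Sox7, Prap1, Foxa2, Tagap and Tnfrsf14, with Pearson correlations of 0.990 to 0.995. Those nearest to Elane were Rhov, Triap1, Zfp639, Pstk and 1700066J03Rik, with correlations of 0.969 to 0.993. Of the 13054 genes, 157 exceeded 0.9 for S100a8 and 75 for Elane. How often such values arise between unrelated genes over 6 arrays was not tested. None of these genes was on the neutrophil lists.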

How the data were processed

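Liver RNA (6 samples) was hybridised to Affymetrix whole-transcript arrays, 1 per sample, after labelling 100 ng of RNA per the labels' protocols. The authors used Affymetrix Expression Console 1.4.1 and RMA, per the submitters' processing notes, and deposited log2 expression values of 41345 probe sets. RMA gives all arrays the same intensity distribution, so a shift of most transcripts would not be visible. No genome build of the probes is given in the sources used here.

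Of the probe sets, 23521 had 1 gene symbol in the platform annotation, 1814 had several and 16010 were not listed there. Where a gene had more than 1 such probe set (1082 genes), that with the highest mean was kept, giving 22180 genes. Groups were compared by the moderated linear model of limma 3.58.1 (lmFit, eBayes; R 4.3.3), without a filter on dim signals, and p-values were 2-sided and adjusted by Benjamini-Hochberg over all genes. On simulated data with 22180 genes and 200 shifted ones, an adjusted p of 0.05 recovered 2% of 50 genes shifted by 0.5 log2 units, 72% of 50 shifted by 1 and 100% of 50 shifted by 2, with 6 calls among unshifted genes. The simulated variances were drawn from the fitted prior. In the data, Lcn2 differed by 3.70 with SDs of 0.81 in knockout and 0.75 in control arrays, and did not pass. Its unadjusted limma p was 1.2e-05. An adjusted p also depends on how many genes differ, and the simulation assumed 200 shifted genes, while 0 genes passed in the data. The simulated recovery therefore may not hold for these data. No pair of arrays was identical (0 pairs). The labels do not say that samples were separate animals, so p-values measure the spread between these samples, and the number of arrays limits the precision.

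The 10 genes and the lists were chosen with earlier results of these data known. Of 175 list entries, 164 were matched. Named are all 10 genes, up to 4 genes of smallest p per list, and the 5 genes most correlated with S100a8 and with Elane; Ms4a3, the motifs searched and chromosome neighbours were chosen after values were seen, and so were list genes beyond these. Promoters of 10 of 10 genes were found in RefSeq's GRCm38.p6 table. Alternatives changed the dim filter, the normalization, the variance model, the array weights, the probe set rule, the replicate block and the arrays included.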

Additional observations from a re-analysis of the deposited data

How the results depend on the processing

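None of the 10 genes passed an adjusted p of 0.05 under any of the 14 alternatives (0 under each). Over all genes 0 passed as reported, 15 passed when only genes with a mean at or above the table median were tested, 25 when the variance prior followed intensity, and 0 to 66 when 1 array was left out, 66 without knockout replicate 3 and 3 without control replicate 3. The number of the 10 genes at an unadjusted p under 0.05 was 3 as reported, 1 (Prtn3) after further quantile normalization, 1 of the 3 that passed the filter on dim genes, and 1 to 3 when 1 array was left out, with 1 without control replicate 2 or 3. The genes in this count changed. Without knockout replicate 2 they were Prtn3, S100a8 and Camp, and Camp was lower in knockout (-0.63). Without knockout replicate 1 they were Prtn3 and Retnlg. The median difference of 0.19 was 0.062 over the 3 genes passing the filter on dim genes and 0.13 to 0.23 when 1 array was left out. Prtn3 stayed positive under every alternative, at 0.58 to 0.95, with adjusted p-values of 0.0676 to 0.690. Differences near 0 turned their sign when 1 array was left out, over a range of -0.12 to 0.20 for Elane, -0.013 to 0.17 for Ngp, -0.086 to 0.052 for Ctsg and -0.015 to 0.39 for S100a9, and the cause was not tested. The range was 0.089 to 0.47 for Mpo, 0.10 to 0.24 for Ltf, 0.27 to 0.61 for S100a8, 0.39 to 0.85 for Retnlg and -0.63 to -0.15 for Camp. The medians of the gene lists moved by more than the spread between arrays in 13 of 291 combinations of list and alternative. When 1 array was left out, small list medians were not stable, at -0.019 to 0.11 for neutrophil receptors, 0.056 to 0.19 for the neutrophil markers beyond the 10 genes, 0.037 to 0.16 for granulocyte progenitor genes, 0.0071 to 0.21 for dividing cells, -0.057 to 0.068 for erythroid precursors and -0.088 to 0.11 for the protease inhibitors, against 0.61 to 1.16 for macrophages. Same-numbered samples did not deviate together (correlations 0.01, 0.05 and 0.02, and not every sample matched its own number best), so the numbers are not taken as pairs; with the replicate as a block 1 gene passed over all genes, 2 of the 10 genes, S100a8 and Prtn3, were at an unadjusted p under 0.05, and no call among the 10 was changed. Centring the arrays on their medians moved the median of all genes to -0.01. The simulation recovered few differences of 0.5 log2 units, and most differences of the 10 genes were smaller than that, so with 3 arrays per group they could not be detected reliably.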
